A study of Mus musculus with 12 samples.

Results

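The contractile apparatus of Purkinje cells (PCs) and ventricular myocytes (VMs) was examined through 33 genes of sarcomere and Z-disc proteins, out of 48526 genes counted in each library. The 33 were a hand-chosen list of mouse gene symbols, and all 33 were found among the counted genes. They comprise 5 genes of the thick filament, 11 of the thin filament and its regulators, 4 of titin and the M-band, 10 of the Z-disc, and 3 that encode desmin and the Xin proteins. RNA came from adult male *Ncam-1* WT and *Ncam-1* KO mice that carried the *Cntn2*-EGFP reporter, a transgene that marks the conduction system, in both genotypes. Cardiomyocytes stained with the mitochondrial dye TMRM were sorted by GFP into PCs (positive) and VMs (negative), which gave 3 libraries of each cell type and genotype. The KO lacks *Ncam-1* in every cell, the mutant line and the reporter line were kept on different genetic backgrounds before they were crossed, and the sort rests on a reporter driven by the *Cntn2* promoter. The exact age and the number of hearts behind each library are not given in the sources used here, so p-values measure the spread between these libraries.

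In a sarcomere, myosin thick filaments pull on actin thin filaments, and calcium binding to troponin on tropomyosin switches the thin filament on. Titin spans from the Z-disc, where actin filaments are anchored by alpha-actinin, to the M-band, where thick filaments are cross-linked. PCs conduct the impulse and hold fewer and less ordered myofibrils than working myocytes, but build them from the same protein families.

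Between 13883427 and 42505705 read pairs per library were counted on genes, of which 1532393 to 6761356 lay outside the mitochondrial genome. The reads carry no molecular identifiers and are not independent molecules, so count floors cover counting error alone. All 10 cardiomyocyte markers were present in every group, with a summed level of 234184 to 327982 normalized counts per library, where a normalized count is a count scaled to a common library size by edgeR's TMM method, though 5 of the 10 (*Myl2*, *Myh6*, *Tnnt2*, *Tnni3* and *Actn2*) belong to the 33 genes. The summed level of 9 PC markers was 715 to 1625 in WT PCs, 287 to 1178 in KO PCs, 162 to 229 in WT VMs and 193 to 228 in KO VMs. Markers of some other cell types moved with the PC sort: the summed level of 10 fibroblast markers was 703 to 1707 in PCs and 73.5 to 457 in VMs, and that of 10 endothelial markers was 531 to 1714 in PCs and 73.5 to 580 in VMs. The summed level of 10 leukocyte markers was 268 to 696 in PCs and 15.6 to 147 in VMs. The sum of 10 smooth muscle and pericyte markers overlapped, at 4042 to 6743 in PCs and 4298 to 4964 in VMs. Most of it was *Abcc9*, at 2760 to 4602 in PCs and 3806 to 4551 in VMs. Gene by gene, 8 of 9 tested in WT had a log2 fold change of PCs over VMs above 0 (median 0.59). Of these, 3 had an unadjusted p under 0.05 by the quasi-likelihood test of edgeR, beside 6.36% of all genes. In KO 7 of 8 lay above 0 (median 2.03), with 5 at that threshold, beside 9.7% of all genes. The targeted gene *Ncam1* was at 34 to 116 counts in WT PCs, at most 9 in WT VMs and at most 1 in any KO library. Replicate 2 of WT PCs stood apart, with 63.9% of its read pairs unaligned, while the others had 18.8% to 24.7%. It also had the fewest genes detected (11847, against 13571 to 18129) and the highest mitochondrial share (91.3%, against 79.0% to 88.7%). Its 1532393 counts outside the mitochondrial genome were the fewest. Values of the named genes and of the lists are given without it where that moved a value by over 1.5 times, turned its sign or changed a call.

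The sarcomere and Z-disc genes were among the strongest transcripts of both cell types. The 33 genes took 15.5% to 24.8% of the counts outside the mitochondrial genome, and 11 or 12 of them were among the 50 highest nuclear genes of each library. *Ttn*, which encodes titin, alone took 5.75% to 16.2%. Its normalized count was 409589, 171958 and 390861 in WT PCs, 268860, 332889 and 435860 in KO PCs, 488395, 360773 and 395170 in WT VMs and 316863, 399575 and 424142 in KO VMs. The 4 groups overlapped, and the lowest value was that of replicate 2 of WT PCs.

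Levels were compared between genes as normalized counts per kb of the principal transcript in the GENCODE M21 annotation. Per kb, the 5 highest were *Myl3* (median over the 12 libraries 23524), *Myl2* (21670), *Actc1* (19465), *Tnnt2* (16214) and *Tnni3* (15912). *Myl3* and *Myl2* encode the essential and regulatory light chains of ventricular myosin, *Actc1* cardiac actin, and *Tnnt2* and *Tnni3* the cardiac forms of troponin T and troponin I. The ranges of these 5 over the libraries overlapped, and their order within each library was not compared.

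*Myl3* ranged from 17973 to 28165 normalized counts over the 12 libraries and *Myl2* from 14162 to 34761, both highest in replicate 2 of WT PCs. *Actc1* had 45751, 17676 and 25351 in WT PCs, 28614, 26986 and 45093 in KO PCs, 40431, 28729 and 26049 in WT VMs and 36159.5, 26142 and 34279 in KO VMs. The groups overlapped for each of these 3 genes in every comparison of cell types or genotypes.

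*Myh6*, the myosin heavy chain of the adult mouse heart, stood at 8592 per kb, and *Ttn* at 3914. At the other end were *Tpm2*, a tropomyosin of slow skeletal muscle (9.87 per kb), *Neb*, which encodes nebulin, the giant ruler protein of skeletal thin filaments (11.5), *Myh7b* (14.2) and *Obsl1*, which encodes an obscurin-like M-band protein (17.6). *Nebl*, which encodes the cardiac relative nebulette, stood at 578 per kb. The ratio of *Nebl* to *Neb* per kb was 23.1 ± 12.5 in PCs and 92.4 ± 14.9 in VMs of WT hearts, and 47.3 ± 24.4 in PCs and 60.1 ± 2.53 in VMs of KO hearts (SD, n = 3 each). *Tnnt2* exceeded *Tnnt1*, the slow skeletal troponin T, by at least 123 times per kb in each library.

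The other members are given by their range of normalized counts per kb over the 12 libraries. In the thick filament, *Mybpc3*, the cardiac myosin-binding protein C, lay at 500.4 to 671, and *Myh7b*, a slow myosin heavy chain, at 6.33 to 24.5. In the thin filament, *Tnnc1*, the calcium-binding troponin C, lay at 3605 to 5094, and *Lmod2*, the leiomodin that elongates thin filaments at their pointed ends, at 1861 to 2789. The M-band genes *Myom1* and *Myom2*, which encode myomesins, lay at 1105 to 1512 and 264 to 604.

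In the Z-disc, *Csrp3* (3216 to 7943) and *Myoz2* (2758 to 3736), which encodes a calsarcin that tethers calcineurin, were the highest. *Actn2*, the alpha-actinin that cross-links actin, lay at 711 to 1318, *Cmya5*, which encodes myospryn, at 638 to 1182, and *Ldb3*, which encodes the PDZ-LIM protein cypher, at 274 to 724. *Mypn*, *Flnc* and *Synpo2l*, which encode actin- or actinin-binding proteins, stayed under 162 in every library. *Des*, the muscle intermediate filament that links Z-discs, lay at 811 to 1261, *Xirp2* at 676 to 1132 and *Xirp1* at 62.1 to 164. Of the 33 genes only the *Tpm2*, *Tnnt1*, *Myh7b*, *Synpo2l*, *Flnc*, *Mypn*, *Neb* and *Obsl1* counts were under 100 in any library.

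**Figure D1:**
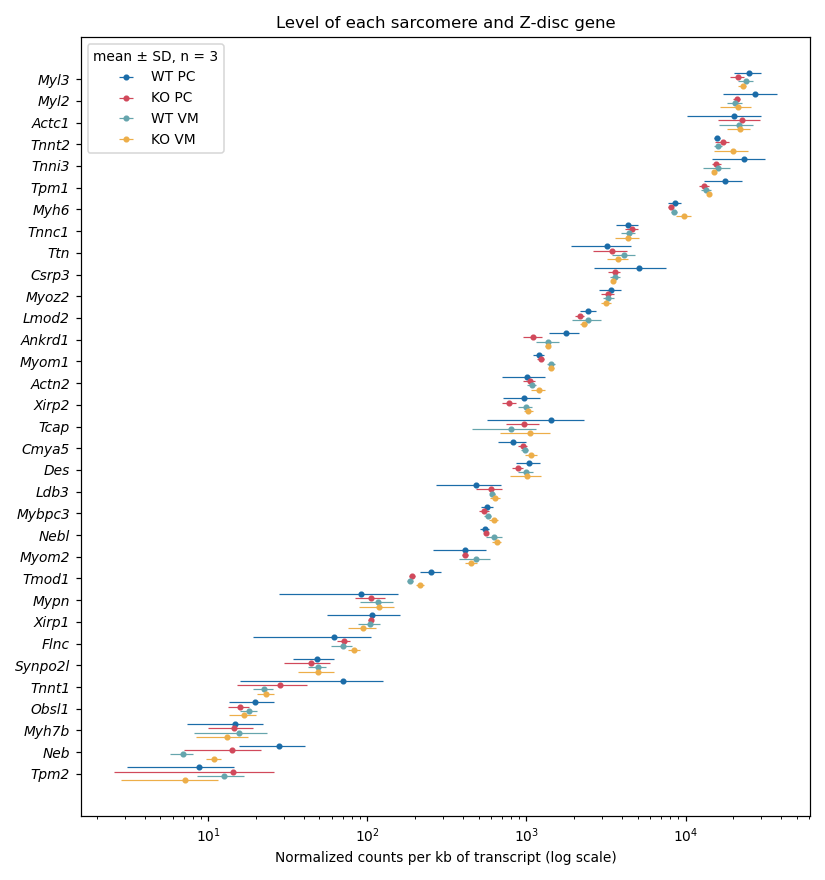
Mean normalized counts per kb of transcript (log scale, bars are SD, n = 3 libraries) for each of the 33 genes in the 4 groups (WT and KO, PCs and VMs), ordered by the median over all libraries. The order spans *Myl3* at 23524 per kb to *Tpm2* at 9.87 per kb, and for most genes the 4 groups lie on each other, with *Neb* and *Tnnt1* the most spread towards WT PCs.

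The spread between replicates was described by the SD within groups. The SD of log2 normalized counts within groups had a median of 0.291 over the 33 genes and 0.511 over the 11323 genes tested across all 12 libraries, and without replicate 2 of WT PCs the median of the 33 was 0.210. The higher expression of these genes was not taken into account in this comparison. *Myom1* (0.0850), *Mybpc3*, *Nebl* (0.108) and *Myh6* (0.113) were the steadiest. *Tpm2*, with 4 to 72 counts per library, varied most (0.816), followed by *Tcap* (0.701), which encodes telethonin, the cap of titin at the Z-disc.

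In replicate 2 of WT PCs most long members were lower and most short ones higher than in the other WT PC libraries. Against the mean of those libraries, the 14 members with transcripts of 5 kb or more had a median log2 difference of -0.68, with 10 of 14 below. The 14 members under 3 kb had a median of 0.46, with 3 of 14 below. Over all genes tested across the 12 libraries the median difference of replicate 2 of WT PCs was -0.27. *Flnc* (filamin C) stood at 0.217 times and *Ttn* at 0.430 times the mean level of the other libraries. Short transcripts went the other way, with *Tnnt1* at 3.32 times and *Csrp3* (muscle LIM protein) at 2.15 times. *Neb*, whose transcript of 22489 bases is the longest here after *Ttn*, went against this at 1.81 times, and *Obsl1*, *Xirp2* and *Nebl* were above the others as well. The part of transcript length in these differences was not tested further.

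**Figure D2:**
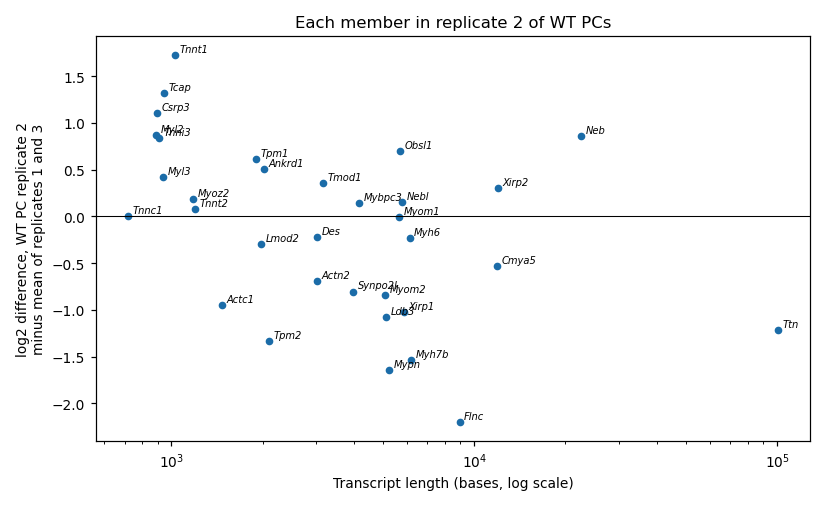
Log2 difference of each of the 33 genes in replicate 2 of WT PCs from the mean of replicates 1 and 3, against the length of its transcript (bases, log scale). Most short transcripts lie above 0 and most transcripts of 5 kb or more lie below, with *Neb* above 0 despite its 22489 bases.

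The first question was whether PCs and VMs of WT hearts differ in these genes. Among the 33 genes, 2 were higher in WT PCs at an unadjusted p under 0.05 by the quasi-likelihood test of edgeR, *Neb* and *Tnnt1*, a share close to the 6.36% of all 11822 genes tested. None was lower at that threshold. The libraries did not overlap for 5 of the 33 (background 13.9%), *Neb*, *Tnnt1* and *Tmod1* higher in PCs and *Myom1* and *Cmya5* lower. At an adjusted p under 0.05 the count was 0 in edgeR (quasi-likelihood, Benjamini-Hochberg) (background 0.11%), and 1, *Neb*, with DESeq2 and with limma voom, which gave 2 and 3 at the unadjusted threshold. Over all 11822 genes DESeq2 called 115 and voom 130 at an adjusted p under 0.05, and 8.34% and 10.2% at the unadjusted threshold. The median log2 fold change over the 33 genes was -0.04, against -0.00 over all genes, and it turned to 0.059 without replicate 2 of WT PCs. By place, the medians were -0.02 for the thick filament, -0.02 for the thin filament, -0.27 for titin and the M-band, -0.08 for the Z-disc and 0.03 for desmin and Xin. Without that library they were 0.059, 0.15, -0.12, 0.053 and 0.12 in the same order, so 3 of the 5 turned their sign.

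*Neb* (ENSMUSG00000026950, chromosome 2, 52136647 to 52378474, minus strand, GRCm38) had 319, 860.2 and 706 normalized counts in WT PCs and 158, 129 and 179 in WT VMs. All WT PC libraries lay above all WT VM libraries. The mean was 628 ± 279 in WT PCs and 155 ± 25.1 in WT VMs (SD, n = 3 each), a log2 fold change of 1.98 (SE 0.362) or 3.93-fold. *Neb* ranked 27 of 11822 genes, with p = 3.86e-04 and an adjusted p of 0.169 in edgeR (quasi-likelihood, Benjamini-Hochberg), and a two-sided exact permutation p of 0.1, the lowest that 3 against 3 libraries allow. Without replicate 2 of WT PCs the log2 fold change was 1.70 (SE 0.281) and the adjusted p was 0.00948 in edgeR (quasi-likelihood, Benjamini-Hochberg). The unadjusted p stayed under 0.05 in each of the 6 fits that left out 1 library. Of 10 skeletal muscle markers, *Myod1*, *Myf5*, *Myf6*, *Myog*, *Pax7* and *Tnnc2* had 0 counts in every library, and *Tnnt3* and *Mylpf* had at most 5.78 normalized counts. The last of the 10, *Ckm* and *Acta1*, which the heart also expresses, were at 1718 to 4594 and 62.5 to 285 over the libraries.

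*Tnnt1* (ENSMUSG00000064179, chromosome 7, 4504570 to 4516382, minus strand) had 37.5, 137 and 42.2 normalized counts in WT PCs, from 86, 70 and 73 counts, and 26.3, 19.8 and 22.9 in WT VMs. The groups did not overlap, but replicate 2 of WT PCs was more than 3 times as high as either other PC library. The log2 fold change was 1.56 (SE 0.558), with p = 0.0204 and adjusted p = 0.692 in edgeR (quasi-likelihood, Benjamini-Hochberg) and an exact permutation p of 0.1. Without that library it was 0.77 (SE 0.346) and still passed the unadjusted threshold, which was missed without replicate 2 or without replicate 3 of WT VMs. *Tmod1*, which encodes the tropomodulin that caps the pointed ends of thin filaments, had 741, 936 and 718 normalized counts in WT PCs and 572, 615 and 577 in WT VMs. The groups did not overlap, and the log2 fold change of 0.41 (SE 0.201) did not pass the unadjusted threshold (p = 0.0741 in edgeR, exact permutation p = 0.1).

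No other gene of the 33 passed. In the thick filament, *Myh6* was at 56948, 46832 and 53399 normalized counts in WT PCs and 51652, 54440 and 50159 in WT VMs, which overlapped (log2 fold change -0.02, SE 0.186, and 0.07, SE 0.137, without replicate 2 of WT PCs). *Tnni3* had 15559, 29904 and 17906 in WT PCs and 11733, 17469 and 14487 in WT VMs, also overlapping, with a log2 fold change of 0.50 (SE 0.277), and 0.18 (SE 0.177) without replicate 2 of WT PCs. *Myom1* was at 7331, 6731 and 6240.3 in WT PCs against 8538, 7990 and 7594 in WT VMs, without overlap, a log2 fold change of -0.28 (SE 0.179). The number of genes at p under 0.05 rested on the libraries used: it was 8 without replicate 1 of WT PCs, and 1 without replicate 2 or without replicate 3 of WT VMs. The share of all genes at that threshold moved too, to 10.9% in the first of these fits and 2.67% in each of the others.

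**Figure D3:**
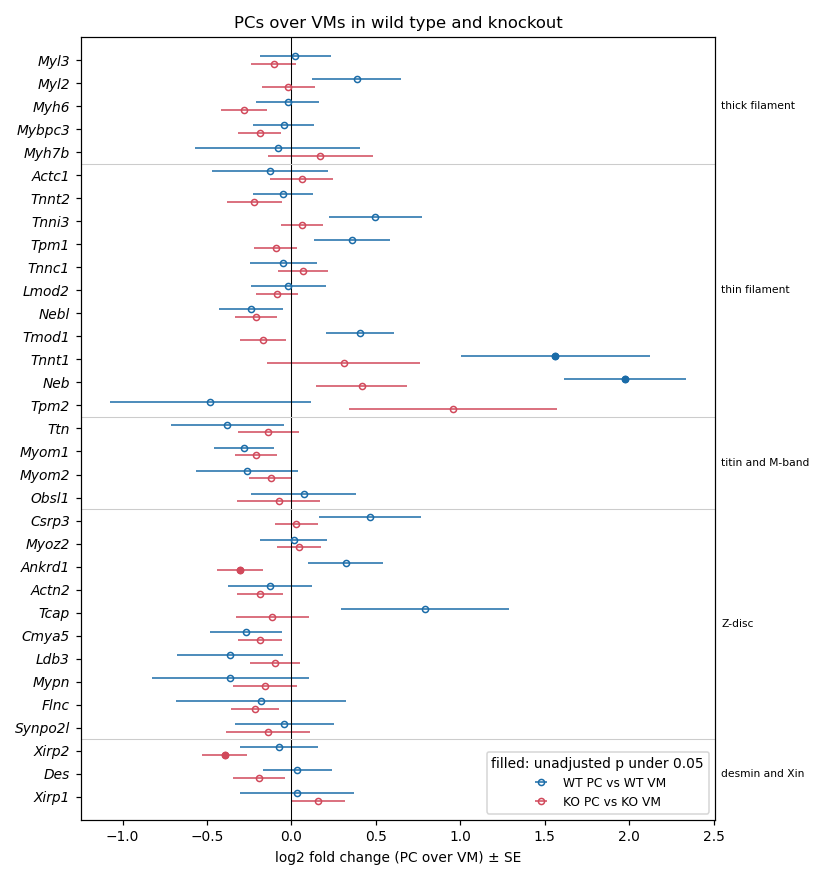
Log2 fold change of PCs over VMs (bars are SE) for each of the 33 genes, in WT (blue) and in KO (red) hearts, grouped by place in the sarcomere, with filled points at an unadjusted p under 0.05 in edgeR. In WT, *Neb* at 1.98 and *Tnnt1* at 1.56 stand apart on the right, and in KO *Xirp2* at -0.40 and *Ankrd1* at -0.31 are filled on the left.

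In KO hearts the same contrast gave 2 of 33 genes at p under 0.05 in edgeR, *Xirp2* and *Ankrd1*, both lower in KO PCs than in KO VMs, against 9.7% of the 10779 genes tested. Libraries did not overlap for 8 of 33 (24.2%, background 15.6%), all 8 lower in KO PCs. These were *Xirp2*, *Ankrd1*, *Myh6*, *Flnc*, *Nebl*, *Myom1*, *Mybpc3* and *Tmod1*, with log2 fold changes from -0.40 to -0.17. In the same libraries the fibroblast markers summed to 703 to 1114 normalized counts in KO PCs and 73.5 to 354 in KO VMs, and the endothelial markers to 531 to 1714 and 73.5 to 345, without overlap, and their part in the values of the 8 genes was not tested. Fewer cells of a type and less RNA per cell cannot be told apart in sorted bulk samples. At an adjusted p under 0.05 the count was 0 in edgeR (quasi-likelihood, Benjamini-Hochberg) (background 0.872%) and with DESeq2, and 1, *Xirp2*, with limma voom, which gave 3 and 7 at the unadjusted threshold. Over all 10779 genes DESeq2 called 135 and voom 75 at an adjusted p under 0.05, and 8.39% and 9.84% at the unadjusted threshold. The median log2 fold change was -0.11 over the 33 genes and 0.01 over all genes. The count at p under 0.05 was 1 without replicate 1 of KO PCs, where it was *Neb*, higher in PCs (8.84% of all genes), and 1 without replicate 2 of KO VMs, where it was *Xirp2* (8.62% of all genes).

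*Xirp2* (ENSMUSG00000027022, chromosome 2, 67446002 to 67526614, plus strand), which encodes an actin-binding Xin repeat protein of the intercalated disc and Z-disc, had 8216, 9926 and 9917 normalized counts in KO PCs and 11734, 11926 and 13247 in KO VMs. The groups did not overlap. The log2 fold change was -0.40 (SE 0.133), with p = 0.00882 and adjusted p = 0.239 in edgeR (quasi-likelihood, Benjamini-Hochberg) and an exact permutation p of 0.1. Without replicate 1 of KO PCs, which had the lowest value, it did not pass the unadjusted threshold. In WT the libraries overlapped, at 13532, 12860.2 and 8077 in PCs and 13163, 11499 and 10771 in VMs (log2 fold change -0.07, SE 0.231, and -0.15, SE 0.195, without replicate 2 of WT PCs). *Ankrd1* had a log2 fold change of -0.31 (SE 0.136), with p = 0.0381 and adjusted p = 0.475 in edgeR (quasi-likelihood, Benjamini-Hochberg) and an exact permutation p of 0.1, and kept p under 0.05 in 2 of the 6 fits that left out 1 library. *Myh6* was at 51238, 47370 and 49047 normalized counts in KO PCs and 67155, 57662 and 54621 in KO VMs, without overlap (log2 fold change -0.28, SE 0.135, p = 0.0536 in edgeR, exact permutation p = 0.1). *Neb* overlapped between KO PCs and KO VMs, with a log2 fold change of 0.42 (SE 0.268).

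The second question was the effect of the loss of NCAM-1 in PCs. In KO PCs 1 of 33 genes differed from WT PCs at p under 0.05 in edgeR, *Ankrd1*, which was lower, against 3.22% of the 11754 genes tested. Libraries did not overlap for 4 of 33 (12.1%, background 9.52%), *Ankrd1*, *Tnni3*, *Tpm1* and *Tmod1*, all lower in KO PCs. At an adjusted p under 0.05 the count was 0 in edgeR (quasi-likelihood, Benjamini-Hochberg), with DESeq2 and with limma voom (background 0%), and at unadjusted p under 0.05 DESeq2 gave 3 and limma voom 4, all lower, beside 4.79% and 4.28% of all genes. The median log2 fold change was -0.05 over the 33 genes and -0.00 over all genes, and -0.18 over the 33 genes without replicate 2 of WT PCs. By place, the medians were -0.09 for the thick filament, -0.18 for the thin filament, 0.02 for titin and the M-band, 0.00 for the Z-disc and -0.24 for desmin and Xin. Without that library they were -0.10, -0.22, -0.13, -0.14 and -0.32 in the same order. Without replicate 1 of KO PCs the number at p under 0.05 was 0 (1.41% of all genes), without replicate 3 of KO PCs it was 2 (2.05%), and without replicate 1 of WT PCs it was 8, of which 7 were lower (7.72%).

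*Ankrd1* (ENSMUSG00000024803, chromosome 19, 36111961 to 36120099, minus strand) encodes the ankyrin repeat protein CARP, which binds titin at the I-band and also acts in the nucleus. It had 3006, 4432 and 3238 normalized counts in WT PCs and 1886, 2419 and 2374 in KO PCs. The groups did not overlap, and the highest value was that of replicate 2 of WT PCs. WT PCs averaged 3559 ± 765 and KO PCs 2226 ± 296 (SD, n = 3 each), a log2 fold change of -0.67 (SE 0.231), with p = 0.0158 and adjusted p = 0.993 in edgeR (quasi-likelihood, Benjamini-Hochberg) and an exact permutation p of 0.1. Without replicate 2 of WT PCs it was -0.50 (SE 0.176) and passed the unadjusted threshold, which was missed without replicate 1 of KO PCs. In VMs *Ankrd1* had 2695, 2362 and 3278 normalized counts in WT and 2796, 2826 and 2645 in KO, which overlapped (log2 fold change -0.02, SE 0.141).

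*Tnni3* (ENSMUSG00000035458) was at 13246, 14537 and 15062 normalized counts in KO PCs, all below the WT PC libraries, of which replicate 2 was highest (29904). The log2 fold change was -0.56 (SE 0.262, p = 0.0591 in edgeR, exact permutation p = 0.1) and -0.24 (SE 0.166) without that library. *Tpm1*, the main cardiac tropomyosin, had 26596, 43935 and 30943 in WT PCs and 22826, 25086 and 26555 in KO PCs, where the nearest libraries of the groups almost touched. Its log2 fold change was -0.44 (SE 0.235, p = 0.0900 in edgeR, exact permutation p = 0.1), and -0.22 (SE 0.168) without replicate 2 of WT PCs. *Tmod1* had 624, 607 and 578 in KO PCs, below every WT PC library, a log2 fold change of -0.40 (SE 0.216, p = 0.0925 in edgeR, exact permutation p = 0.1) and -0.29 (SE 0.176) without that library.

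*Neb* and *Tnnt1* had the most negative log2 fold changes in KO PCs, but neither passed. *Neb* had 174, 290.4 and 494 normalized counts in KO PCs, and the highest of these lay above replicate 1 of WT PCs (319). Its log2 fold change was -0.95 (SE 0.437, p = 0.0550 in edgeR, exact permutation p = 0.2), and -0.66 (SE 0.364) without replicate 2 of WT PCs. In KO PCs the PC markers summed to 343, 287 and 1178 normalized counts against 715, 1625 and 1591 in WT PCs, in the same order of replicates, and their part in the values of *Neb* was not tested. *Tnnt1* had 33.4, 13.9 and 40.1 normalized counts in KO PCs, overlapping with WT PCs (log2 fold change -1.25, SE 0.630, p = 0.0758 in edgeR, exact permutation p = 0.2), and the log2 fold change was -0.44 (SE 0.474) without replicate 2 of WT PCs.

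**Figure D4:**
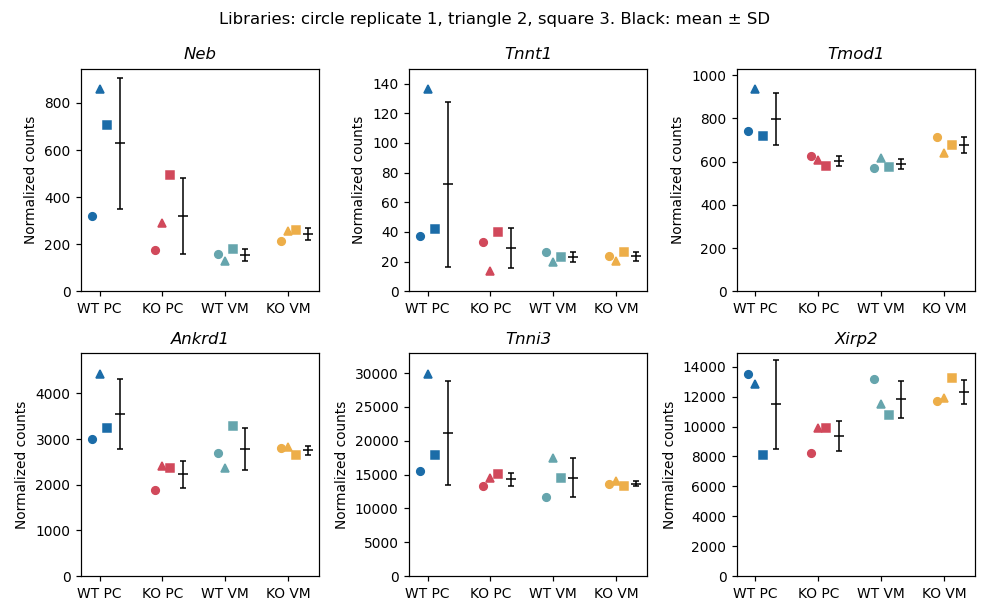
Normalized counts of 6 genes in each library (symbols mark the replicate, black bars are the mean and SD, n = 3) for PCs and VMs of each genotype, on axes from 0. *Neb* is highest on average in WT PCs (319 to 860.2) and *Ankrd1* is lowest on average in KO PCs (1886 to 2419), with WT VMs down to 2362. Replicate 2 of WT PCs is the highest point for *Neb*, *Tnnt1*, *Tmod1*, *Ankrd1* and *Tnni3*.

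In VMs, where *Ncam1* had at most 9 counts in WT, 1 of 33 genes differed between KO and WT at p under 0.05 in edgeR, *Neb*, which was higher in KO, against 5.12% of the 10737 genes tested. Libraries did not overlap for 3 of 33 (background 9.63%), *Neb*, *Tmod1* and *Myh6*, all higher in KO VMs. At an adjusted p under 0.05 the count was 0 in edgeR (quasi-likelihood, Benjamini-Hochberg) (background 0.0373%), with DESeq2 and with limma voom, beside 2 at unadjusted p under 0.05 with each of the latter. At the unadjusted threshold DESeq2 called 3.64% and voom 5.44% of all genes. The median log2 fold change was 0.02 over the 33 genes and -0.02 over all genes. Leaving out replicate 1 or 3 of either group gave 2 genes at p under 0.05, with 4% to 5.15% of all genes. Several markers of other cell types were lower in KO VMs. Of the endothelial markers 9 of 9 tested had a log2 fold change below 0 (median -0.83), as had 53% of all genes, and 2 were at p under 0.05 in edgeR. Fibroblast markers had a median of -0.53. Smooth muscle and pericyte markers had a median of -0.59, where 3 of 8 did not overlap and were lower in KO VMs. In order of replicates, the endothelial markers summed to 580, 305 and 299 normalized counts in WT VMs and 73.5, 345 and 286 in KO VMs. The fibroblast markers summed to 457, 282 and 249.97 in WT VMs and 73.5, 354 and 293 in KO VMs. In each list replicate 1 was the highest WT VM library and the lowest KO VM library. The part of these markers in the values of the members was not tested.

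*Neb* had 158, 129 and 179 normalized counts in WT VMs and 214, 258 and 259 in KO VMs, without overlap. The mean of KO VMs was 244 ± 26.1 (SD, n = 3), a log2 fold change of 0.64 (SE 0.179), with p = 0.00238 and adjusted p = 0.709 in edgeR (quasi-likelihood, Benjamini-Hochberg) and an exact permutation p of 0.1, and p stayed under 0.05 in all 6 fits that left out 1 library. In a fit of all 12 libraries together *Neb* did not pass the unadjusted threshold. *Myh6* had 51652, 54440 and 50159 normalized counts in WT VMs and 67155, 57662 and 54621 in KO VMs, where the highest WT and lowest KO library differed by less than the spread within either group (log2 fold change 0.19, SE 0.123). *Tmod1* had 713, 638 and 677 in KO VMs against 572 to 615 in WT VMs (log2 fold change 0.20, SE 0.134). *Tnnt2* was at 30134, 22705 and 18824 in KO VMs and 19219, 20279 and 18094 in WT VMs, which overlapped (log2 fold change 0.31, SE 0.152, p = 0.0580 in edgeR, exact permutation p = 0.3).

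**Figure D5:**
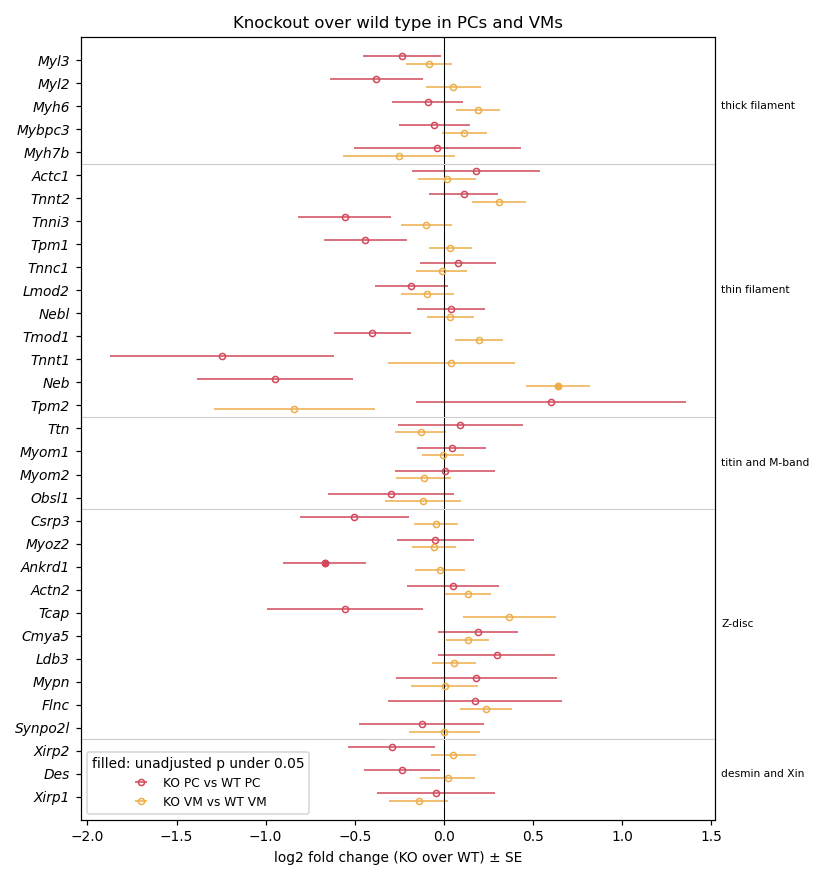
Log2 fold change of KO over WT (bars are SE) for each of the 33 genes in PCs (red) and in VMs (yellow), grouped by place in the sarcomere, with filled points at an unadjusted p under 0.05 in edgeR. *Ankrd1* is filled in PCs at -0.67 and *Neb* in VMs at 0.64, and *Neb* lies on opposite sides of 0 in the 2 cell types.

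Whether the effect of genotype differed between PCs and VMs was tested as an interaction over all 12 libraries. A difference at p under 0.05 in edgeR was found for 3 of 33 genes, *Neb*, *Ankrd1* and *Tmod1*, against 2.9% of the 11323 genes tested, and at an adjusted p under 0.05 for 0 in edgeR (quasi-likelihood, Benjamini-Hochberg) (background 0%), with DESeq2 and with limma voom, which gave 3 and 4 at the unadjusted threshold. At the unadjusted threshold DESeq2 called 3.89% and voom 3.68% of all genes. For each of the 3 the effect was more negative in PCs. The interaction was -1.60 for *Neb* (SE 0.506, p = 0.00610), -0.66 for *Ankrd1* (SE 0.264, p = 0.0234) and -0.60 for *Tmod1* (SE 0.231, p = 0.0192) on the log2 scale (n = 12 libraries), each with an adjusted p of 0.999 in edgeR (quasi-likelihood, Benjamini-Hochberg). The p of *Neb* and *Tmod1* stayed under 0.05 in all 12 fits that left out 1 library, and that of *Ankrd1* in 10. The median interaction over the 33 genes was -0.14, and 0.01 over all genes. Without replicate 1 of WT PCs 8 genes passed, all more negative in PCs, beside 7.56% of all genes, and without replicate 1 of KO PCs or replicate 2 of WT VMs 2 passed, beside 2.51% and 1.73%. These comparisons share libraries: the WT PC libraries enter the contrast with VMs, that with KO PCs and the interaction, so a high value in one of them enters all 3.

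The promoters of these genes were compared for short motifs of factors known in muscle, in RefSeq's windows of 250 bases before to 50 after each start (build GRCm38.p6). The table held windows for 29 of the 33 genes, all but *Neb*, *Myom2*, *Tcap* and *Xirp1*. A MEF2 motif was found in 17.2% of the 29 genes and 2.16% of all 27025 genes with a window, and a CArG box, the site of serum response factor, in 17.2% and 1.81%. The MCAT element (CATTCC, the site of TEAD factors) was found in 37.9% and 16.6%, the GATA motif (AGATAA) in 24.1% and 12.7%, the E-box (CAGCTG) in 9 of the 29 genes and 18.3%, and the TATA box (TATAAA) in 17.2% and 15.7%. Both strands were searched, a match to the TATA box can lie within one to MEF2, and a match describes the letters, not binding. The 250 bases upstream of *Xirp2*, which passed between KO PCs and KO VMs, and of 1 start of *Tnnt2*, among the highest per kb, are shown with the matches in capitals, as windows without annotated exons. The windows of *Myl2*, which stood higher per kb than *Tnnt2*, also lacked annotated exons, held GATA, E-box and TATA matches, and are not shown. The *Xirp2* window (chr2:67445752-67446001, plus strand) has a MEF2 match that begins 74 bases before the start, and the *Tnnt2* window (chr1:135836084-135836333, plus strand) has E-boxes at 223 and 157, a GATA match on the reverse strand at 166 and an MCAT element at 27 bases before the start.
Xirp2: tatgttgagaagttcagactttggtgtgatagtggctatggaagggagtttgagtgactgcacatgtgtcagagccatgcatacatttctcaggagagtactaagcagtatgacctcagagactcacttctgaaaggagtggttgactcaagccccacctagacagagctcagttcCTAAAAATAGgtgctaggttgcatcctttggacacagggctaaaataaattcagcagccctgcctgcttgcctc
Tnnt2: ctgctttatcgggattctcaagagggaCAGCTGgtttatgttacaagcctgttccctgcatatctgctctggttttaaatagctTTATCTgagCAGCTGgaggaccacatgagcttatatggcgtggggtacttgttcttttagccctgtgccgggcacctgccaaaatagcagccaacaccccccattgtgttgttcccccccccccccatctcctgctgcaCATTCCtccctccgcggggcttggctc

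Genes near these in function were taken from lists that were also hand-chosen, with earlier results of these data known. Of 23 other sarcomere isoforms, such as those of atrium and skeletal muscle, 10 had enough counts to be tested between WT PCs and WT VMs, and 3 were higher in PCs at p under 0.05 in edgeR (30.0%, background 6.36%). The number tested was 8 without replicate 2 of WT PCs and 8 between KO and WT VMs, so passing the filter on counts rested partly on WT PCs. The share of 30.0% is therefore a description of this list only. The 3 isoforms higher in WT PCs were *Myl1* (log2 fold change 2.27, SE 0.679), a skeletal essential light chain, *Myl7* (1.90, SE 0.653), the atrial regulatory light chain, and *Myl4* (1.62, SE 0.658), the atrial essential light chain. The libraries overlapped for *Myl7* and *Myl4*, and 8 atrial markers that include both summed to 347 to 1040 normalized counts in WT PCs and 77.2 to 345 in WT VMs, and their part was not tested. Without replicate 2 of WT PCs the log2 fold changes were 1.26 (SE 0.394) for *Myl1*, 1.07 (SE 0.428) for *Myl7* and 0.79 (SE 0.438) for *Myl4*, which then did not pass. In that fit 3 of 8 isoforms passed, among them an isoform not named here, beside 10.4% of all genes. Between KO and WT PCs 1 of 9 was lower, *Myl1* (-1.26, SE 0.544), which was at -0.23 (SE 0.272) and did not pass without that library, and between KO and WT VMs 0 of 8 passed in edgeR at the unadjusted threshold. Without replicate 2 of WT PCs 1 of 9 isoforms, other than *Myl1*, passed between KO and WT PCs, beside 3.84% of all genes. Of 44 genes of sarcomere assembly and upkeep, 42 were tested in each contrast. In WT, *Pdlim3* (1.82, SE 0.331) and *Pdlim7* (1.08, SE 0.466), which encode PDZ-LIM proteins of the Z-disc, were higher in PCs, and *Fhl2* (-0.53, SE 0.204) and *Tmod4* (-1.52, SE 0.544) were lower (9.52% of the 42). *Tmod4*, a tropomodulin of skeletal muscle, was the 1 of 42 at p under 0.05 between KO and WT PCs, where it was higher (1.69, SE 0.604), a share of 2.38% against the background of 3.22%. Without replicate 2 of WT PCs 4 of 42 passed between KO and WT PCs, beside 3.84% of all genes. Between WT PCs and WT VMs 7 of 42 then passed, beside 10.4% of all genes. In KO VMs 2 of 42 were lower than in WT VMs, *Cryab* (-0.74, SE 0.183) and *Hspb8* (-0.47, SE 0.129), both small heat shock proteins, a share of 4.76% against the background of 5.12%. Between KO PCs and KO VMs 2 of 8 isoforms were higher in PCs, *Myl4* (1.75, SE 0.519) and *Myl7* (1.57, SE 0.693), and of the 42 genes 1 was higher, *Pdlim1* (0.72, SE 0.296), and 5 were lower, among them *Cfl2*, *Fhl2*, *Plec* and *Nexn* (each -0.32 or -0.33). The shares were 25% and 14.3% against the background of 9.7%. The interaction passed the unadjusted threshold for *Myl1* (-1.85, SE 0.779), which was lost without replicate 2 of WT PCs (-0.80, SE 0.518), and for *Tmod4* (1.60, SE 0.610). At an adjusted p under 0.05 the count was 0 for both lists in edgeR (quasi-likelihood, Benjamini-Hochberg) in each contrast with all its libraries. Without replicate 2 of WT PCs *Pdlim3* passed that threshold between WT PCs and WT VMs (1.75, SE 0.281). Its adjusted p was then 0.00874 in edgeR (quasi-likelihood, Benjamini-Hochberg).

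Some counts could include reads of other genes, since the sources do not state whether counting used the strand. *Myh7b*, with at most 284 counts, overlaps *Trpc4ap* on the opposite strand (60 to 336 counts), *Tnnc1* overlaps *Nisch* and *Myom1* overlaps *Myl12a*. The overlapping genes of *Neb* had at most 5 counts and that of *Xirp2* at most 11. Of the 50-base stretches of *Myh6*, 22.6% are also found in *Myh7*, and of those of *Tmod1* 3.57% lie in other genes, while 28 of the 33 genes share none with another gene.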

How the data were processed

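RNA of 12 libraries from sorted PCs and VMs was amplified by the authors with a low-input kit and sequenced as paired ends. The deposited values are unnormalized gene counts that the authors made with STAR and HTSeq (mm10), and depth was 13883427 to 42505705 counts per library. Groups followed the genotype and cell type in the sample titles.

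Analyses were run in R 4.3.3. Each comparison of 2 groups took their 6 libraries, scaled by TMM, and kept genes above 5 normalized counts on average. It used the quasi-likelihood test (glmQLFTest) of edgeR 4.0.16, and p was adjusted by Benjamini-Hochberg across the genes kept. The interaction used all 12 libraries. Exact permutation tests (two-sided, 20 relabellings) took mean log2(normalized count + 2). The steps were tested on simulated data. The alternatives were DESeq2 1.42.0, its size factors in edgeR, limma 3.58.1 voom with sample quality weights, filterByExpr, no filter, omission of mitochondrial genes, a replicate block, a fit of 12 libraries and the omission of each library. Members and lists were chosen with earlier results of these data known. Described in full were members at p under 0.05, those with the 3 largest changes among members without overlap between groups in each comparison, and the 5 highest per kb, and from the other lists those at p under 0.05, up to 5 by smallest p.

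Replicates differed by a chi-square of at least 7.03 per degree of freedom, and no libraries were identical. All 33 members passed the filter on low counts in every comparison. Overlap and sequence sharing came from GENCODE M21. Western blots, qPCR and imaging were not analysed here.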

Additional observations from a re-analysis of the deposited data

Results flagged for a closer look

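For 3 genes the effect of genotype differed between PCs and VMs by the test of that difference, the interaction, at the unadjusted threshold only. The interaction on the log2 scale was -1.60 for *Neb*, -0.60 for *Tmod1* and -0.66 for *Ankrd1*, at unadjusted p = 0.00610, 0.0192 and 0.0234 in edgeR (n = 12 libraries). Each had an adjusted p of 0.999 in edgeR (quasi-likelihood, Benjamini-Hochberg). *Neb* was at -0.95 for KO against WT in PCs (groups overlapping) and 0.64 in VMs (groups not overlapping). *Tmod1* was at -0.40 in PCs and 0.20 in VMs, without overlap between genotypes in either cell type. *Ankrd1* was at -0.67 in PCs, without overlap, and -0.02 in VMs. Without replicate 2 of WT PCs the 3 interactions were -1.30, -0.48 and -0.47. The PC markers summed to 715 to 1625 normalized counts in WT PCs and 287 to 1178 in KO PCs, and their part in these differences was not tested.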

How the results depend on the processing

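*Neb* kept its direction and an unadjusted p under 0.05 between WT PCs and WT VMs in all 6 fits without 1 library and all 8 other alternatives, and in the interaction in all 12 and all 7. Of the values of single genes under the alternatives, 127 kept their direction and side of the threshold, 14 lost the threshold and 0 changed sign. *Tmod1* lost it in the interaction without a filter on low counts.

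Counts of the 33 genes at p under 0.05 moved more. Between KO and WT PCs (1) they were 3 with DESeq2, 4 with voom, 5 without a filter, 2 without mitochondrial genes and 6 in the fit of 12 libraries. Leaving out 1 library gave 0 to 8, and medians of the log2 fold change from -0.18 to -0.034 (voom -0.14, against -0.05). Between KO and WT VMs (1) the count was 2 with DESeq2, its size factors or voom, 3 without a filter, 2 without mitochondrial genes and 0 in the fit of 12 libraries, with 1 to 2 and medians of -0.028 to 0.11 when 1 library was left out. Between WT PCs and WT VMs (2) it was 4 without a filter and 5 in the fit of 12 libraries, and 1 to 8 when 1 library was left out, with medians of -0.10 to 0.059. At an adjusted p under 0.05 in this comparison DESeq2, voom, no filter and the fit of 12 libraries each gave 1, and leaving out 1 library 0 to 1. Over all genes those settings called 115, 130, 297 and 38 at that threshold, and leaving out 1 library 1 to 108. Between KO PCs and KO VMs (2) voom gave 7, and 1 at an adjusted p under 0.05, no filter 4 and the fit of 12 libraries 0, with 1 to 3 and medians of -0.15 to -0.036 when 1 library was left out. For the interaction (3) no filter gave 1 at an adjusted p under 0.05, beside 19 of all genes. Leaving out 1 library gave 2 to 8 at the unadjusted threshold and medians of -0.16 to -0.045. The share of all genes at p under 0.05 moved with these settings. Between KO and WT PCs it was 4.79% with DESeq2, 4.28% with voom, 5.21% without a filter, 3.18% without mitochondrial genes and 8.5% in the fit of 12 libraries. Between KO and WT VMs the same settings gave 3.64%, 5.44%, 4.71%, 5.11% and 1.35%. No filter and the fit of 12 libraries gave 7.18% and 10.9% between WT PCs and WT VMs, and 7.89% and 5.83% between KO PCs and KO VMs, where voom gave 9.84%. With 1 library left out the share was 1.41% to 7.72% between KO and WT PCs and 4% to 6.59% between KO and WT VMs. It was 2.67% to 10.9% between WT PCs and WT VMs and 7.25% to 10.9% between KO PCs and KO VMs. In the interaction it was 1.73% to 7.56%. The cause of these shifts was not tested.

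With the replicate block, 2 genes passed between KO and WT PCs (*Neb* and *Ankrd1*) and 2 between KO and WT VMs (*Neb* and *Tpm2*), beside 2.37% and 4.83% of all genes, and no other count moved by over 1.5 times. The block follows the numbers in the sample titles, while source names give all WT libraries but replicate 1 of each cell type another number, so across genotypes it may join libraries that do not belong together. The source names of WT PCs and WT VMs carry the same numbers in the same order, but the labels do not state what a shared number means. The correlation of the deviations of same-numbered libraries was 0.0813 to 0.207 between WT PCs and WT VMs. Between KO PCs and KO VMs it was -0.00956 to 0.121. Whether such libraries came from the same heart is not stated, and the main fits did not pair them. Genes with few counts, such as *Tpm2* (4 to 72), allow only large differences to be seen.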
